A study of Mus musculus with 6 samples.

Results

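The immunity-related GTPases (IRG) are a family of GTPase genes that mouse cells switch on in response to interferon. Described here are 7 of them, Irgm1, Irgm2, Igtp, Iigp1, Ifi47, Tgtp1 and Tgtp2, out of 55573 genes in the count files. The family was chosen by gene name with the values of Nfkb2-/- and wild-type Tregs in these libraries already known, so its differences between the genotypes are given as a description and support nothing further. All 7 were found by symbol in GENCODE M21 (GRCm38), and all 7 passed the filter on low counts. The libraries came from splenic regulatory T cells (Tregs), a CD4 lineage that holds immune responses in check. The cells were sorted from bi-parental bone marrow chimeras, in which a mix of transplanted marrows gives rise to the blood cells. There were 3 libraries from Nfkb2-/- Tregs, whose deleted gene encodes the NF-kB precursor p100 and, through its processing, p52, and 3 from wild-type Tregs. All cells were rested in medium for 2 h at 37 °C before lysis, and no treatment was given to either group. The sort is stated to have reached over 90% purity. The labels read here give no age, sex or strain of the mice, no number of mice per library and no measure of the host cells that remained. Since nothing says that the repeats came from separate mice, p-values measure the spread between these samples only. Of the 7 genes, 6 lie on chromosome 11 and Iigp1 lies on chromosome 18, 60376027 to 60392634.

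Interferon-gamma is the strongest known inducer of the family. The proteins fall into regulators, whose names carry the letter M (Irgm1, Irgm2, and Igtp, also called Irgm3), and effectors. Effectors coat and break the vacuoles in which parasites such as Toxoplasma live, and regulators keep effectors inactive on the membranes of the cell itself. In T cells the family is best known through Irgm1, without which CD4 T cells of mice die when they meet interferon-gamma.

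The split between regulators and effectors can be read from the coding sequence of the P-loop, the stretch that holds the phosphates of GTP. The 8 codons of the P-loop follow, 5′ to 3′, from the GENCODE M21 transcripts, because the capital codon is what separates the 2 kinds. It encodes methionine in the regulators and lysine in the effectors.
Irgm1, Irgm2 and Igtp: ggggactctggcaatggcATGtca
Ifi47: gggcagtctgggactggcAAGtcc
Tgtp1 and Tgtp2: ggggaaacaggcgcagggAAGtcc
The 3 regulators had the same 24 bases here, with the capital codon at residue 89 in Irgm1 and Irgm2 and at residue 97 in Igtp. In Ifi47 it was residue 87 and in Tgtp1 and Tgtp2 residue 69, and Iigp1 also had lysine, at residue 82. Proteins translated from these transcripts ran from 407 residues in Irgm2 to 423 in Igtp. Regulators shared 50.3% to 59.3% of aligned residues with each other, and Irgm2 and Igtp were the closest pair of them. Tgtp1 and Tgtp2 were identical at all 415 residues and at 99.7% of their coding bases.

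Promoters were searched for letters recognised by the factors of the interferon response, since the members are known to be induced together. RefSeq windows of 300 bases (GRCm38.p6, 250 bases before the start site to 50 after) were at hand for the 6 members on chromosome 11. A stretch of 60 bases from each is shown, 5′ to 3′ on the strand of the gene, with matches to the ISRE-type motif GAAANNGAAA, the kind bound by interferon regulatory factors, in capitals. The stretches lie at chr11:58199492-58199551 for Igtp and chr11:58214883-58214942 for Irgm2 (both + strand), and at chr11:48871415-48871474 for Irgm1, chr11:48992294-48992353 for Tgtp1 and chr11:49064253-49064312 for Tgtp2 (all - strand). That of Ifi47 is chr11:49076517-49076576 (+ strand), where no match was found, and it is shown for contrast.
Igtp: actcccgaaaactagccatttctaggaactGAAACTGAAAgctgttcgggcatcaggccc
Irgm2: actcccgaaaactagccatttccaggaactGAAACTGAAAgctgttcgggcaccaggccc
Tgtp1: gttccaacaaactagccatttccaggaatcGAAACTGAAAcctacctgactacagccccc
Tgtp2: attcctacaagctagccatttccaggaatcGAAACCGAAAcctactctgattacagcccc
Irgm1: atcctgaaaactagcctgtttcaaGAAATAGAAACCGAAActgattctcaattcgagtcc
Ifi47: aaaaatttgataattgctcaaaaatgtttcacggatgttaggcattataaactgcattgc
The motif was present in 5 of the 6 windows, against 3.43% of 32817 promoter windows of the same length, searched on both strands. It began 34 bases before the start site in Igtp, 64 in Irgm2, 77 in Tgtp1 and 70 in Tgtp2. Irgm1 held 2 overlapping matches, which form the longer run of capitals. Just before the ISRE-type match, 4 of the windows (Igtp, Irgm2, Tgtp1 and Tgtp2) held the GAS-type motif TTCNNNGAA, named for gamma-activated sequences, found in 8.29% of all windows. A kappaB-type motif, GGGNNNNNCC, the loose form of an NF-kB site, was in 2 of the 6 windows (Igtp and Irgm2) and in 50.8% of all windows. These windows are alike and are not independent of each other: those of Igtp and Irgm2 were identical at 92.1% of aligned bases and those of Tgtp1 and Tgtp2 at 80.5%. GENCODE lists 5 transcripts of Ifi47, and the window belongs to the most upstream start; the other 4 start 10.1 to 11.7 kb further on and were not searched. No match says only that these letters are not in this window.

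The libraries held 12005273 to 17278521 counts, and the unit of level is CPM, the count per 1e6 counts of the library after TMM scaling. The deleted gene itself, Nfkb2, read 269, 324 and 271 CPM in knockout replicates 1 to 3 against 558, 545 and 556 CPM in wild type (log2 fold change -0.94, edgeR adjusted p = 0.0203). Its RNA was lower but present, and gene counts do not show which exons it came from. Xist, the X-silencing RNA of female cells, was at 841, 883 and 592 CPM in Nfkb2-/- replicates 1 to 3 and 1.94 to 16.5 CPM in wild type. In the same order, 4 Y-linked genes summed to 40.0, 138 and 275 CPM in Nfkb2-/-, against 465 to 498 CPM in wild type. Every Nfkb2-/- library thus held both Xist and Y-linked RNA, in amounts that differed between replicates. Which cells these came from was not tested. The labels give no sex, so sex and genotype cannot be told apart. The 10 B cell markers, all detected, summed to 29.9 to 52.4 CPM in Nfkb2-/- and to 80.8, 262 and 187 CPM in wild-type replicates 1, 2 and 3, with 2 called lower, among them Cd79a. Summed levels of the other markers were 26.3 to 55.0 against 19.1 to 83.7 CPM for macrophages and monocytes, 88.9 to 129 against 24.1 to 60.1 CPM for dendritic cells, 30.6 to 42.3 against 25.2 to 41.2 CPM for CD8 and NK cells, 7.67 to 17.2 against 2.27 to 36.5 CPM for neutrophils and 24 to 45.2 against 35.1 to 61.5 CPM for red cells. Of the dendritic cell markers, Zbtb46 was called higher (102 against 27.8 CPM) and made up most of the sum, while the other 3 tested had negative log2 fold changes (median of the 4, -0.45). Of 5 tested CD8 and NK cell markers, Eomes was called higher and the other 4 had negative log2 fold changes (median of the 5, -0.48). Foxp3, which defines Tregs, was at 448 to 576 CPM in Nfkb2-/- and 407 to 622 CPM in wild type, and 0 of 8 Treg markers were called (2 had an unadjusted p under 0.05). Wild-type replicate 1 stood apart, with a correlation of log2 CPM across genes of 0.941 to 0.955 with the other libraries, against 0.968 to 0.991 among those. The number of listed markers at 0 in all libraries was 0. The part of B cells, dendritic cells and other cells in the results on the IRG genes was not tested beyond the B cell covariate given with them. Since that covariate did not overlap between the genotypes, it cannot separate B cells from genotype. In bulk samples, fewer cells of a type and less RNA per cell cannot be told apart.

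Of the 7 genes 1 was lower in Nfkb2-/- Tregs and 6 were not called. The mean level of Ifi47, an effector, was 68.5 ± 5.78 CPM in knockout Tregs against 135 ± 11.1 CPM (SD, n = 3 each), or 50.8% of the wild-type level. The mean levels of the 3 regulators were 91.5% to 95.5% of wild type. By edgeR's quasi-likelihood test with Benjamini-Hochberg adjustment over 13347 genes, 0 of the 7 were called higher and 1 lower at a threshold of 0.05, where 1.42% of all genes tested were called in either direction. At an unadjusted p under 0.05 the count was again 1 of 7, against 13.6% of all genes. In 2 of the 7, Ifi47 and Tgtp1, every Nfkb2-/- library was below every wild-type library, as in 9.9% of all genes; in 20.6% of all genes the genotypes did not overlap in either direction. The median log2 fold change (Nfkb2-/- minus wild type) was -0.13 over the 7 and -0.03 over all genes tested. The median over the 7 was 0.07 with the Y-linked covariate, -0.02 without Nfkb2-/- replicate 1, -0.07 without wild-type replicate 1, -0.21 without Nfkb2-/- replicate 2 and -0.28 without wild-type replicate 3.

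**Figure D1:**
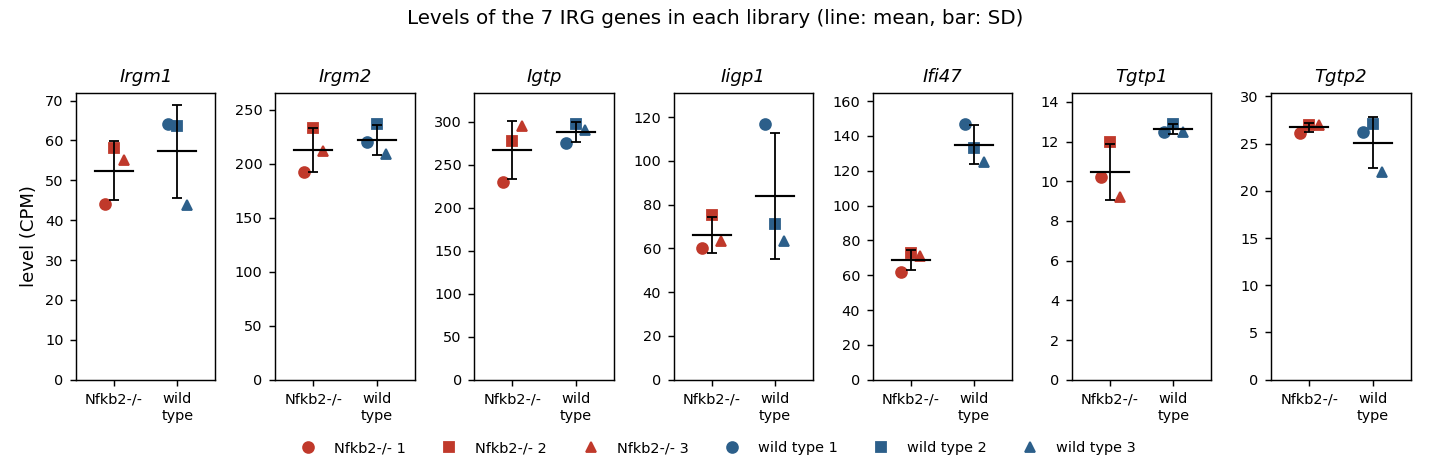
Level of each IRG gene in CPM (vertical axis, from 0, scaled per gene) in the 3 Nfkb2-/- (red) and 3 wild-type (blue) libraries, with the mean and SD. Ifi47 lay between 61.9 and 72.6 CPM in Nfkb2-/- and between 125 and 147 CPM in wild type, while the points of Irgm1, Irgm2, Igtp, Iigp1 and Tgtp2 overlapped.

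Among the regulators, Irgm1 was the most variable. Irgm1 was at 44.0, 58.1 and 55.0 CPM in Nfkb2-/- replicates 1 to 3 and at 64.2, 63.7 and 43.8 CPM in wild-type replicates 1 to 3. Its lowest 2 values came from opposite genotypes, and its log2 fold change was -0.13 (SE 0.187). Irgm2, a regulator found on the Golgi membrane, was at 192, 233 and 212 CPM in Nfkb2-/- and at 220, 237 and 209 CPM in wild type. The groups overlapped almost fully (log2 fold change -0.07, SE 0.126). Igtp, the regulator of the endoplasmic reticulum and lipid droplets, was at 230.0, 278 and 295 CPM in Nfkb2-/- and at 275, 298 and 291 CPM in wild type. Nfkb2-/- replicate 1 was the lowest library and the others lay close together (log2 fold change -0.11, SE 0.135). Once the Y-linked sum entered the fit as a covariate, the log2 fold changes turned to 0.13, 0.07 and 0.16 for Irgm1, Irgm2 and Igtp, with SE from 0.205 to 0.311. That sum did not overlap between the genotypes (40 to 275 CPM against 465 to 498 CPM in wild type), and the fit called 7 genes in all. It cannot separate the Y-linked level from genotype, and nothing is read from the turned signs.

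Ifi47, the effector also called Irgd, was the 1 member called. Ifi47 was at 61.9, 72.6 and 70.9 CPM in Nfkb2-/- and at 147, 133 and 125 CPM in wild type. Its counts were 748, 1032 and 871 against 2719, 1682 and 1484. The groups did not overlap, and the lowest wild-type library (125 CPM) was well above the highest Nfkb2-/- library (72.6 CPM). The log2 fold change was -0.98 (SE 0.124, edgeR adjusted p = 0.0157), lower in 3 of 3 libraries. Leaving out Nfkb2-/- replicate 1, 2 or 3 gave edgeR adjusted p of 0.089, 0.118 and 0.114, and leaving out wild-type replicate 2 gave 0.051. The Y-linked covariate gave 0.463, and each of these values is above the threshold of 0.05. Those fits called only 7 to 63 genes each over all genes, against 189 as reported. The log2 fold change of Ifi47 ran from -1.07 to -0.82 over 15 alternatives, all of one sign. With B cell marker levels in the fit as a covariate it was -1.07 (adjusted p = 0.0105), in a fit that called 21.8% of all genes. Summed B cell markers did not overlap between the genotypes, so this fit cannot separate their level from genotype. Sex and genotype cannot be told apart here.

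Iigp1, the effector also called Irga6, gave 60.0, 75.2 and 63.2 CPM in Nfkb2-/- and 117, 71.3 and 63.6 CPM in wild-type replicates 1 to 3. The first of these stood alone, at 1.74 times the mean of the other 2 wild-type libraries, which lay within the range of the Nfkb2-/- libraries. The log2 fold change was -0.35 (SE 0.235) with all libraries and -0.03 without wild-type replicate 1. With B cell marker levels in the fit as a covariate it was -1.08 and passed the threshold (edgeR adjusted p = 0.0309), again in the fit that called 21.8% of all genes. Summed B cell markers did not overlap between the genotypes (29.9 to 52.4 CPM against 80.8 to 262 CPM in wild type). Wild-type replicate 1 had the lowest wild-type sum, 80.8 CPM. This fit therefore cannot separate B cell level from genotype or from that library. Among the IRG genes outside the 7, Gm12185 and Gm4951 were also at least 1.71 times higher in wild-type replicate 1 than in the mean of replicates 2 and 3.

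Tgtp1 and Tgtp2, effectors also known together as Irgb6, have to be read with care because their transcripts are nearly the same. Tgtp1 was at 10.2, 12 and 9.20 CPM in Nfkb2-/- and at 12.5, 12.9 and 12.5 CPM in wild type. The groups did not overlap, by a small margin (log2 fold change -0.27, SE 0.177). Tgtp2 was at 26.1, 27.0 and 27.0 CPM in Nfkb2-/- and at 26.2, 27.1 and 22.0 CPM in wild type. The third wild-type library was low and the other 5 libraries lay between 26.1 and 27.1 CPM (log2 fold change 0.09, SE 0.143). Of all stretches of 50 bases in Tgtp1 transcripts 79.4% also occur in Tgtp2, and 85.8% the other way round. Reads from such stretches cannot be assigned to either gene, and the counting mode is not stated. With the counts of both genes summed before the fit the log2 fold change was -0.02 (SE 0.128).

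The other 5 members shared fewer such stretches with other genes, from 0.379% in Irgm1 to 11.8% in Igtp. Igtp and Irgm2 share 162 exon bases on the same strand, through 1 Irgm2 transcript that begins within Igtp. Ifi47 shares 111 exon bases with Olfr56, an olfactory receptor gene on the same strand, and 106 with the pseudogene Gm12188 on the other strand. Those genes had few counts of their own, 4 to 32 for Olfr56 and 3 to 18 for Gm12188, against 748 to 2719 for Ifi47. Tgtp1 shares 223 exon bases with Gm12185. The library kit does not mark strand, so reads from such overlaps cannot be told apart.

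Per exon length the genes ran from Igtp at the top to Tgtp1 at the bottom. The mean over the 6 libraries, in CPM per kb of merged exons, was 137 for Igtp, 58.9 for Irgm2, 41.1 for Ifi47, 12.9 for Iigp1, 9.44 for Irgm1, 8.81 for Tgtp2 and 3.6 for Tgtp1. On this scale Igtp was above 97.8% of the genes tested and Tgtp1 above 40.3%. The ranges over libraries were apart between Igtp and Irgm2, between Ifi47 and Iigp1, and between Tgtp2 and Tgtp1, and overlapped between the other neighbours. Irgm2 was above Ifi47 in 6 of 6 libraries, with a ratio from 1.01 to 2.15, and the 3 smallest distances were in wild type. Irgm1 was above Tgtp2 in 5 of 6 libraries, a mean ratio of 1.07, so the order of these neighbours is not settled by their spread. Counting only exon bases that no other gene covers, a choice made after seeing the data, Igtp was at 149, Irgm2 at 61.6 and Ifi47 at 45.1 CPM per kb. The regulators held both the 2 highest levels and, with Irgm1, one of the lower ones.

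**Figure D2:**
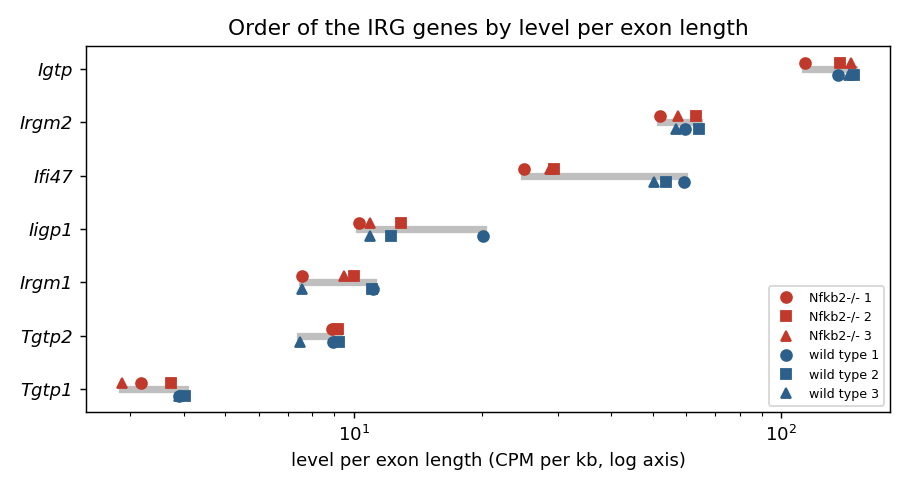
Level per exon length (CPM per kb, log axis) of the 7 IRG genes in each library, with Nfkb2-/- in red, wild type in blue and the range as a grey bar. Igtp lay between 114 and 148 and Tgtp1 between 2.87 and 4.02, and only Ifi47 had its red and blue points widely apart.

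The make-up of the family's RNA differed mainly through Ifi47. The 7 genes summed to 625, 756 and 731 CPM in Nfkb2-/- and to 862, 844 and 767 CPM in wild type. Without Ifi47 the sum was 635 ± 63.9 CPM in knockout against 689 ± 40.8 CPM in wild-type libraries (SD, n = 3 each). Ifi47 made up 9.91%, 9.61% and 9.70% of the family's counts in Nfkb2-/- and 17.0%, 15.8% and 16.3% in wild type. Within a genotype this share was nearly constant although the summed level was not. Across the 6 libraries, pairs of members correlated at a median r of 0.46 (log2 CPM, 18 of 21 pairs positive, range -0.34 to 0.82), and at a median of 0.53 for deviations from the genotype means (19 of 21 positive). These values share library and depth and are given with no test. The highest within genotypes were Irgm1 with Tgtp2 (0.89), Irgm1 with Ifi47 (0.87) and Ifi47 with Iigp1 (0.82), while Igtp with Iigp1 was at -0.10.

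Patterns most like the mean of the 7 were looked for outside the family. The mean z-score of the members took the values -1.05, 0.23 and -0.29 in the knockout libraries, in order of replicate number, against 0.71, 0.73 and -0.34 in wild type, so the lowest library was Nfkb2-/- replicate 1 and 2 wild-type libraries were highest. Over 9026 protein-coding genes with at least 5 CPM, the highest Pearson r with the mean z-score of the members over 6 libraries was 0.994 for Rexo1, an RNA exonuclease gene, then 0.990 for Rtf1, a transcription elongation factor, 0.983 for Zc3h18 and 0.973 for Ezh2, the histone methyltransferase. Pcyox1, Tmem129, Ctu1 and Diexf followed at 0.967 to 0.960. These were picked as the highest of 9026 values over 6 libraries and are a description. Of the guanylate-binding proteins, Gbp7 (0.91) and Gbp5 (0.83) were the most alike. Gbp10 (-0.54) and Gbp8 (-0.70) went the other way, Gbp6 (-0.07) was near 0, and the others tested lay between 0.28 and 0.63.

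In the count files the members carry the identifiers ENSMUSG00000046879 (Irgm1), ENSMUSG00000069874 (Irgm2), ENSMUSG00000078853 (Igtp), ENSMUSG00000054072 (Iigp1), ENSMUSG00000078920 (Ifi47), ENSMUSG00000078922 (Tgtp1) and ENSMUSG00000078921 (Tgtp2), and all are annotated as protein-coding. By position (GRCm38), the members on chromosome 11 form 2 groups. Irgm1, Tgtp1, Tgtp2 and Ifi47 lie within 235 kb, at 48861968 to 49096974, and Igtp and Irgm2 within 23.2 kb, at 58199556 to 58222782, with 9.1 Mb between the groups. In the first group, Irgm1 lies at 48861968 to 48871683, Tgtp1 at 48985327 to 48994172, Tgtp2 at 49057194 to 49064206 and Ifi47 at 49076587 to 49096974, the first 3 on the - strand and Ifi47 on the + strand. The log2 fold changes of neighbours differed: 0.09 for Tgtp2 and -0.98 for Ifi47, the next member along the chromosome and on the opposite strand. Psme2b, a proteasome activator gene within the same group and no member of the family, was at 32.1 to 44.1 CPM in Nfkb2-/- and at 43.7 to 49.6 CPM in wild type.

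No gene of the rest of the family was called. Of 10 other IRG genes 9 were tested and 0 were called, against 1.42% of all genes. An unadjusted edgeR p under 0.05 was found for 1 of the 9, against 13.6% of all genes. The log2 fold change was negative for 6 of the 9, against 7335 of all 13347 genes tested. The median of the 9 was -0.29, or 0.01 without wild-type replicate 1 and -0.14 without Nfkb2-/- replicate 3. The 1 gene with an unadjusted p under 0.05 was 9930111J21Rik2. It was at 29.6, 25.2 and 25.0 CPM in Nfkb2-/- and 57.0, 41.5 and 32.1 CPM in wild type. Its log2 fold change was -0.71 (SE 0.218), or -0.47 without wild-type replicate 1, its highest library, and 56.1% of its stretches of 50 bases also occur in 9930111J21Rik1. With no count filter its edgeR adjusted p was 0.0496, and without wild-type replicate 1 the 1 gene called was Irgq (log2 fold change 0.49). Gm12250, which encodes the effector Irgb10 and is listed as a pseudogene in GENCODE M21, was at 15.7, 22.0 and 23.4 CPM in Nfkb2-/- and 18, 19.8 and 17.6 CPM in wild type. Its log2 fold change was 0.15. Irgc1, a testis gene, had 1 to 9 counts per library and was not tested.

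The guanylate-binding proteins (GBP) are the other large family of interferon-inducible GTPases and act with the IRG proteins on the same vacuoles. Of 11 GBP genes 10 were tested, 0 rose and 1 fell, against 1.42% of all genes called in either direction. An unadjusted edgeR p under 0.05 was found for 5 of the 10, against 13.6% of all genes. The median log2 fold change was -0.38. In 6 of the 10 every Nfkb2-/- library was below every wild-type library, against 9.9% of all genes tested. Gbp2b fell, with 4.71 ± 0.628 CPM in knockout and 12.7 ± 2.64 CPM in wild-type Tregs (SD, n = 3 each; log2 fold change -1.42, SE 0.232, edgeR adjusted p = 0.0315). Gbp2 was at 76.0, 83.2 and 79.9 CPM in Nfkb2-/- and 227, 131 and 148 CPM in wild type, a log2 fold change of -1.08 (edgeR adjusted p = 0.0525). Log2 fold changes were -0.69 for Gbp4, -0.60 for Gbp3, -0.38 for Gbp9, -0.31 for Gbp5 and 0.05 for Gbp8. The number of GBP genes called was 0 without any 1 of the Nfkb2-/- libraries or without wild-type replicate 2 or 3. Those fits called only 0.0509% to 0.479% of all genes. The number of GBP genes called was 4 without wild-type replicate 1, where 9.04% of all genes were called. It was 3 by DESeq2, which called 5.1% of all genes, and 3 with no count filter, where 1.72% were called.

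**Figure D3:**
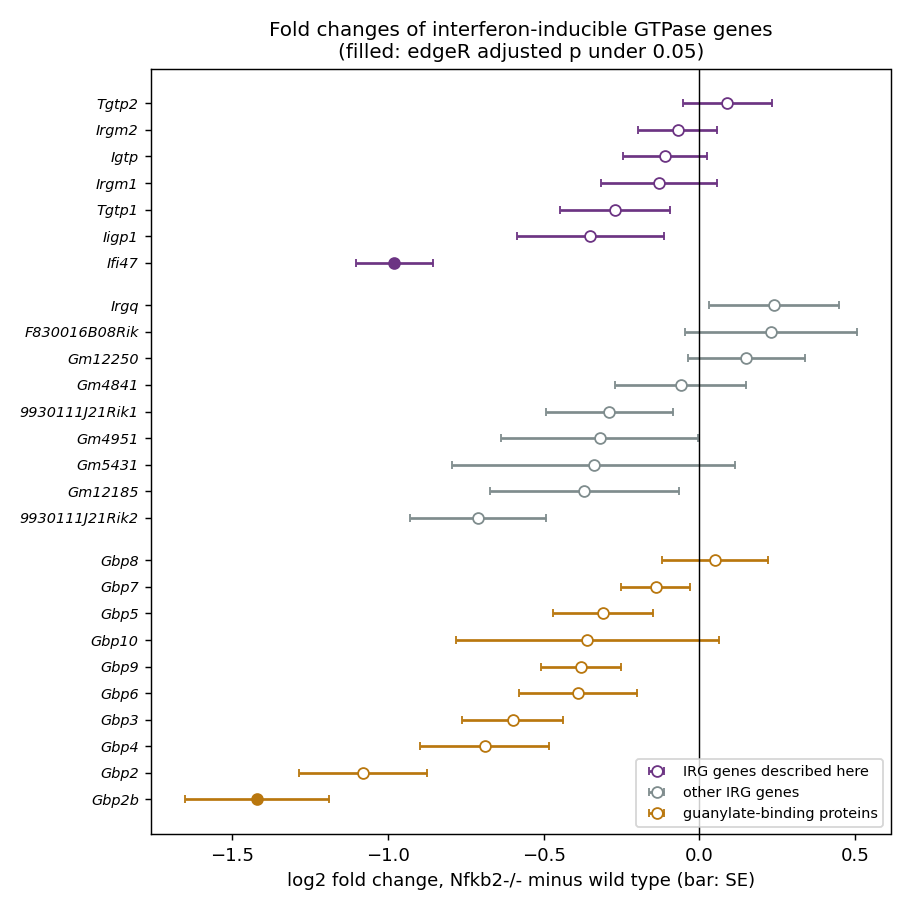
Log2 fold changes (Nfkb2-/- minus wild type, bar: SE) of the 7 IRG genes, 9 other IRG genes and 10 guanylate-binding proteins, filled where the edgeR adjusted p was under 0.05. Ifi47 at -0.98 and Gbp2b at -1.42 are filled, and Irgm1, Irgm2, Igtp and Tgtp2 lie near 0.

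Genes of interferon signalling had log2 fold changes on both sides of 0. Of 21 tested genes of the interferon-gamma pathway 0 were called by edgeR and 6 had an unadjusted p under 0.05, against 13.6% of all genes. The median log2 fold change was 0.00, with 11 of 21 negative, and 0.57 with the B cell covariate. DESeq2 called 5 of them and 5.1% of all genes. Cxcl10, a chemokine gene induced by interferon-gamma, was at 48.7, 75.4 and 72.1 against 9.71, 24.1 and 31.8 CPM (log2 fold change 1.59, edgeR adjusted p = 0.113). On the other side of 0, and named after their values were seen, Ciita was at -1.82 (edgeR adjusted p = 0.21) and Irf8 at -0.99 (edgeR adjusted p = 0.271). Without wild-type replicate 1, 7 genes of the pathway and 9.04% of all genes were called, and with the replicate number as a block 1 gene and 2.17% of all genes were. Of 22 genes of the type I interferon response 0 were called by edgeR and 1 had an unadjusted p under 0.05 (median -0.10, or 0.38 with the B cell covariate, -0.26 when wild-type replicate 1 was left out and 0.04 when replicate 3 was), with Oas1a at 0.70 and Usp18 at -0.65. Of 14 autophagy genes, whose products help to place IRG proteins on vacuoles, 0 were called and 1 had an unadjusted p under 0.05 (median 0.03), with Map1lc3a at -0.53 and Atg5 at -0.31. DESeq2 called 0 genes of these last lists.

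**Figure D4:**
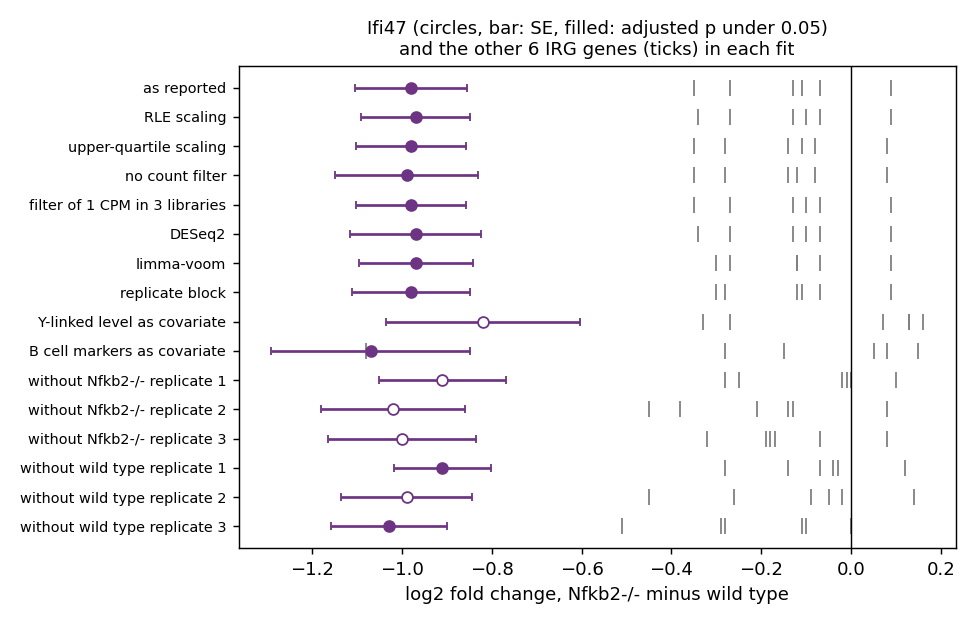
Log2 fold change of Ifi47 (circles, bar: SE, filled where the adjusted p was under 0.05) and of the other 6 IRG genes (ticks) as reported and in each of 15 other fits. Ifi47 stayed between -1.07 and -0.82 in every fit shown, and its circle is open in 5 of them.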

How the data were processed

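RNA of 6 Treg libraries was counted per gene. The authors deposited whole-number read counts per gene with no scaling. Per the submitters' processing notes, FastQC, HISAT2 and HTSeq were among the tools, as was DESeq2, with the build GRCm38; versions and how HTSeq treated shared reads are not stated there. Per the labels' protocols the kit was TruSeq RNA v2, which does not mark strand. The members, lists and alternatives were chosen with earlier results of these data known.

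Of 55573 identifiers 55480 matched GENCODE M21. Counts were tested with edgeR 4.0.16 (R 4.3.3): filterByExpr, TMM, robust quasi-likelihood fit on genotype, Benjamini-Hochberg over all 13347 genes tested, threshold 0.05. The fit was tested on simulated data. CPM uses TMM-scaled library sizes (factors 0.9543 to 1.076). Alternatives were RLE and upper-quartile scaling, other filters, DESeq2 1.42.0, limma-voom (limma 3.58.1), a replicate block, Y-linked or B cell levels as a covariate, and leaving out each library. Named genes are the 7 members, other IRG and GBP genes, up to 4 called members of each further list or its 2 smallest p, and the 8 genes most correlated with the members. Marker lists give their called members. Outside this rule, Nfkb2, Xist and Foxp3 were named as checks of the samples, and Olfr56, Gm12188 and Psme2b as overlapping or neighbouring genes, chosen after the values were seen; some genes this rule names are left out of the text. Every pair of libraries differed by more than sampling noise (lowest chi-square divided by its degrees of freedom, 5.82).

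Both genotypes carry replicate numbers 1 to 3 in their titles. For libraries with the same number, deviations from the mean of the genotype had correlations of 0.364, 0.267 and 0.111, all above 0.1. For libraries with different numbers they ran from -0.428 to 0.251, so these values do not settle whether the numbers mark pairs. Tregs of both genotypes can come from the same bi-parental chimera, and whether they did here was not tested. Results are from the design without pairs, and the replicate block is given as an alternative. Levels per length over exon bases of 1 gene alone were added after seeing the data. Sequences come from RefSeq (GRCm38.p6) and GENCODE, aligned with Biopython 1.88. Figures used matplotlib 3.10.9.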

Additional observations from a re-analysis of the deposited data

How the results depend on the processing

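The call of Ifi47 depended on the libraries used. The number of members called lower was 1 as reported, 0 with the Y-linked covariate, 2 with the B cell covariate (Ifi47 and Iigp1) and 0 to 1 without each library in turn; 0 were called higher in every fit. The replicate block left it at 1 (Ifi47 adjusted p = 0.0289), and it changed the call of no member. The genes called over all numbered 189 as reported, 466 with no count filter, 680 by DESeq2, 289 with the replicate block, 7 with the Y-linked covariate, 2911 with the B cell covariate and 7 to 1234 without each library in turn. GBP genes called numbered 1 as reported, 3 with no count filter, 3 by DESeq2, 0 with the Y-linked covariate, 2 with the B cell covariate and 0 to 4 without each library. Other IRG genes called were 1 with no count filter, 3 with the B cell covariate and 0 to 1 without each library. In the interferon-gamma list 2 were called with no count filter, 5 by DESeq2, 1 with the replicate block, 6 with the B cell covariate and 0 to 7 without each library. Type I genes gave 6 and autophagy genes 1 with the B cell covariate, and both lists 0 to 1 without each library. Directions turned with the Y-linked covariate for Irgm1 (0.13), Irgm2 (0.07), Igtp (0.16), Gm4841 (0.22) and F830016B08Rik (-0.14), and with the B cell covariate for Irgm2 (0.05), Igtp (0.15) and Irgq (-0.27). Neither covariate overlapped between the genotypes, so fits with them cannot separate the covariate from genotype. Without each library in turn Gm12185 ran from -0.57 to 0.01 (positive without wild-type replicate 1) and Gm4841 from -0.17 to 0.12 (positive without Nfkb2-/- replicate 1, at 0.05, or wild-type replicate 1). With the B cell covariate the median log2 fold change was 0.57 for the interferon-gamma list and 0.38 for the type I list, against 0.00 and -0.10 as reported. The cause was not tested. Depth limits Tgtp1, with 113 to 231 counts per library, more than Igtp, with 2785 to 5093.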
